A study of Homo sapiens with 4 samples.

Results

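The well expressed autosomal lincRNAs of U2OS cells were compared between libraries with a GREM1 knockdown and control libraries. Long intergenic non-coding RNAs (lincRNAs) are transcripts with no known protein product, made from genes that lie between protein-coding genes. The members were all genes on chromosomes 1 to 22 that the deposited table annotates as lincRNA and whose mean level over the 4 libraries was at least 5 CPM (counts scaled to a common library total). Host genes of small nucleolar RNAs with SNHG names, and GAS5, ZFAS1 and DANCR, were left out. This gave 226 of the 58735 genes in the table, and 226 of the 7437 autosomal lincRNAs that remained after those exclusions. The members were thus chosen by their mean level over all libraries, which is given as a description, and not by the difference between the groups. A gene could still pass the floor through 1 group: 21 members averaged under 5 CPM in shControl, 4 of which rose, and 13 averaged under 5 CPM in shGREM1, 6 of which fell.

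U2OS is an established human osteosarcoma cell line. There were 2 libraries of control cells (shControl) and 2 of cells with a knockdown of GREM1 (shGREM1). GREM1 codes for gremlin 1, which is secreted and blocks bone morphogenetic proteins. RNA was purified by column and made into libraries with a SMARTER mRNA-Seq kit, per the labels' protocols. The labels give no time after knockdown, do not say whether the cells were a pool or a clone, and do not say whether the libraries of a group came from separate cultures. All p-values therefore measure the spread between these libraries, which may be technical.

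The totals ran from 15492826 to 16353015 counts per library. GREM1 had 2 and 0 counts in shControl, compared with 1 and 1 in shGREM1, so its knockdown could not be checked here and no fold is given. The osteoblast lineage markers RUNX2, ALPL, COL1A1 and SPARC were expressed, whereas COL1A2 had at most 20 counts in any library and SP7, IBSP and BGLAP at most 7. COL1A1 and SPARC rose in shGREM1 (log2 fold changes 0.5 and 0.51, edgeR adjusted p = 0.0172 and 0.0155), and ALPL did not pass (-0.98, edgeR adjusted p = 0.0888). Blood markers summed to between 9 and 31 counts per library, endothelial markers to between 166 and 263, and epithelial markers to between 124 and 255. The epithelial marker EPCAM rose in shGREM1 (log2 fold change 0.99 ± 0.22 SE, edgeR adjusted p = 0.0123). Mitochondrial genes took 4.484% and 4.345% of the counts in shControl, compared with 5.375% and 4.24% in shGREM1. In RNA from a bulk culture, fewer cells of a kind and less RNA per cell cannot be told apart.

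LincRNAs are transcribed by RNA polymerase II and many are spliced and polyadenylated, as messenger RNAs are. A few are abundant and have well studied roles: they scaffold nuclear bodies, hold RNA-binding proteins, carry microRNAs in their introns or exons, or act on genes beside them. Many others start head to head with a protein-coding gene, from a shared promoter region, and have no known role.

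Nuclear scaffold RNAs made up much of the members' signal and did not pass the test. NEAT1 (ENSG00000245532, chromosome 11), which forms the core of paraspeckles, had a level of 3160 and 3150 CPM in shControl, compared with 2780 and 2950 in shGREM1. Its counts were 34.7% of all member counts, and both shGREM1 libraries lay below both shControl libraries, with a log2 fold change of -0.14 ± 0.11 (SE) and an edgeR adjusted p of 0.49. MALAT1, a neighbour on chromosome 11 that resides in nuclear speckles, stood at 485 and 546 CPM in shControl against 506 and 504 in shGREM1, and the groups overlapped. NORAD, a cytoplasmic RNA needed for genome stability, had 272 and 290 CPM in shControl and 330 and 322 in shGREM1, which did not pass (0.22 ± 0.11, edgeR adjusted p = 0.236).

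Per kilobase of annotated length, AC117402.1 was the highest member at 150 CPM per kb, ahead of NEAT1 at 132, FLJ22447 at 120, IGFL2-AS1 at 88.2, AL161431.1 at 77.0, LINC00973 at 72.7, PURPL at 61.2 and MALAT1 at 57.8. Of these 8, AL161431.1 rose, LINC00973 fell, and the other 6 did not pass the test. AC117402.1 was at 226 and 232 CPM in shControl and 193 and 164 in shGREM1, which missed the threshold (edgeR adjusted p = 0.0649). The mean level of a member ran from 5.01 to 3000 CPM with a median of 10.4, and 107 members were under 10 CPM. The members lay on all 22 autosomes, 67 had LINC names and 98 only a clone-based identifier. Just above the floor were AC144831.1, AC011450.1 and AC112721.2, with mean levels of 5.044, 5.011 and 5.009 CPM. Just below it were AL355338.1, LINC01876 and LINC02253, with 4.92, 4.917 and 4.908 CPM.

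In shGREM1, 27 members rose and 12 fell, and 187 did not pass (edgeR's quasi-likelihood test, Benjamini-Hochberg adjusted p under 0.05 over 18442 genes). These calls were 17.3% of the members, against 7.69% of all genes tested. Risers were 11.9% of the members against 3.57% of all genes, and fallers were 5.31% against 4.12%. Of the 192 members that averaged at least 5 CPM in both groups, 23 rose (12%) and 6 fell (3.12%). A floor in both groups itself removes members that fell to, or rose from, a low level. The set of all genes was not held to such a floor, so these 2 shares cannot be set against its shares. Among the 11472 protein-coding genes with at least 5 CPM, 4.52% rose and 5.47% fell. All 226 members passed the count filter, and 9 risers and 6 fallers differed by at least 2-fold. These 6 fallers all averaged under 5 CPM in shGREM1 and met the level floor through shControl. The share of all genes with a call and a 2-fold difference was not counted. The numbers of risers and of fallers varied with the library left out. Both were lower without either shControl library, and higher without either shGREM1 library, than with all libraries. In each of these fits the spread was estimated from the group that kept both its libraries. The loss of a library and the change in estimated spread therefore cannot be told apart.

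The members' median log2 fold change was 0.18, beside 0.005 over all genes tested and -0.016 over the protein-coding genes with at least 5 CPM. A fold change above 0 was seen in 146 of 226 members (64.6%), against 50.6% of all genes. Both shGREM1 libraries lay above both shControl libraries in 101 members (44.7%, against 27.0% of all genes), and below both in 49 (21.7%, against 26.6%). The median was 0.161 in shGREM1-1 and 0.212 in shGREM1-2 relative to the shControl mean. The shControl libraries stood at -0.049 and 0.049, which mirror each other because their own mean is the reference. Other non-coding classes gave medians of 0.196 over the 861 tested lincRNAs below 5 CPM and 0.121 over 191 antisense genes with at least 5 CPM, and 118 processed pseudogenes at that level had a median of -0.148. None of these medians was tested.

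**Figure D1:**
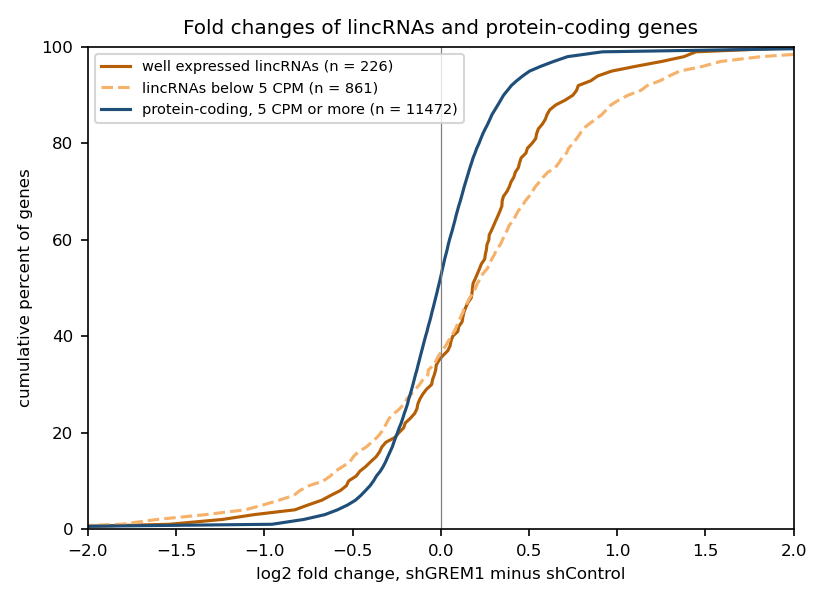
Cumulative percent of genes (vertical axis) by log2 fold change of shGREM1 over shControl (horizontal axis, values beyond 2 in either direction not drawn), for 226 well expressed lincRNAs, 861 lincRNAs below 5 CPM and 11472 protein-coding genes. The lincRNA curves cross the middle of the scale to the right of 0, at medians of 0.18 and 0.196, and the protein-coding curve at -0.016.

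Summed over all members, lincRNAs took 0.82% and 0.8576% of the counts in shControl, compared with 0.8789% and 0.8929% in shGREM1. Without NEAT1 the shares were 0.5092% and 0.5432% in shControl and 0.6007% and 0.5961% in shGREM1. Both sums were higher in both shGREM1 libraries than in either shControl library, with an exact two-sided permutation p of 0.333 for each, which is the smallest that 2 against 2 libraries allow.

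**Figure D2:**
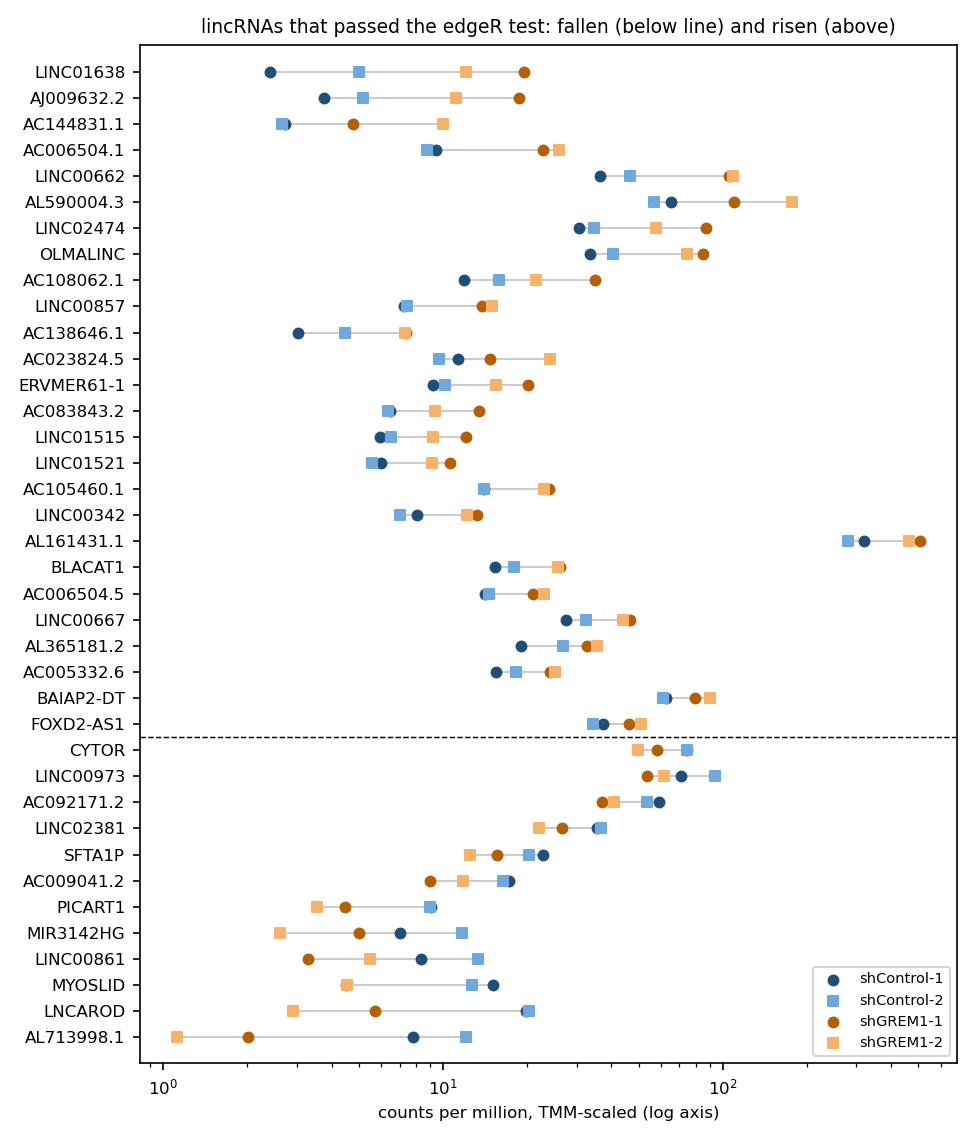
Level of the 39 lincRNAs that passed the edgeR test in each of the 4 libraries (horizontal axis, CPM scaled by TMM factors, log axis), ordered by fold change, with the 12 fallen members below the dashed line and risen members above it (1 of the 27 risers is not drawn). No shGREM1 value overlaps a shControl value in any member drawn, which choosing members by the test largely fixes in advance. The lowest level is 1.12 CPM for AL713998.1 in shGREM1-2.

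Among the members that fell were RNAs tied to differentiation, to a neighbouring gene and to p53. AL713998.1 (ENSG00000227706, chromosome 6), a transcript with only a clone-based name, had 7.84 and 12.1 CPM in shControl, compared with 2.01 and 1.12 in shGREM1. It had the lowest log2 fold change of the 226 members, -2.66 ± 0.33 (SE; edgeR adjusted p = 0.000239). LNCAROD, described in breast cancer cells as an activating regulator of the Wnt antagonist gene DKK1, had 19.8 and 20.3 CPM in shControl and 5.73 and 2.92 in shGREM1. The shControl libraries were close to each other and well above both shGREM1 libraries (-2.21 ± 0.26, edgeR adjusted p = 0.000269). DKK1 itself, looked up after the values were seen, lies 132.8 kb from LNCAROD and had only 4, 3, 1 and 2 counts in the 4 libraries, too few to be tested. The gene nearest to LNCAROD, MBL2, was not expressed at a testable level.

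MYOSLID, an RNA induced by myocardin and serum response factor in vascular smooth muscle, had 15.1 and 12.7 CPM in shControl and 4.51 and 4.54 in shGREM1. The shGREM1 libraries were almost equal and stood at 0.326 times the shControl mean (-1.62 ± 0.22, edgeR adjusted p = 0.000359). Of its 50-base windows, 24.7% also occur in other annotated transcripts, none of them in a gene above 1 CPM. PICART1, named as a p53-inducible RNA, had 9.07 and 9.0 CPM in shControl and 4.45 and 3.54 in shGREM1 (-1.17 ± 0.25, edgeR adjusted p = 0.00949). Like AL713998.1, LNCAROD and MYOSLID, it averaged under 5 CPM in shGREM1 and so met the level floor through shControl. The same holds for the fallers LINC00861 and MIR3142HG, described below. AL713998.1, LNCAROD, MYOSLID and PICART1 were the 4 fallers that passed in every fit that was run.

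The promoters of both MYOSLID and PICART1 are shown because these fallers had a RefSeq start within 200 bases of the start in the table and contain motifs of known promoter factors. They run from 250 bases before to 50 bases after the RefSeq start (GRCh38.p14) and read 5′ to 3′ on the gene's strand. MYOSLID is the window chr2:207239561-207239860 on the plus strand, whose start lies 161 bases from that in the table. Its capitals mark an AP-1 site, TGANTCA, beginning 188 bases before the start, and 2 overlapping TATAAA matches (on either strand) after the start. PICART1 is the window chr17:50055690-50055989 on the minus strand, with capitals at 3 GC boxes (GGGCGG on either strand), 191, 101 and 48 bases before the start, and at a CCAAT box on the other strand.
MYOSLID: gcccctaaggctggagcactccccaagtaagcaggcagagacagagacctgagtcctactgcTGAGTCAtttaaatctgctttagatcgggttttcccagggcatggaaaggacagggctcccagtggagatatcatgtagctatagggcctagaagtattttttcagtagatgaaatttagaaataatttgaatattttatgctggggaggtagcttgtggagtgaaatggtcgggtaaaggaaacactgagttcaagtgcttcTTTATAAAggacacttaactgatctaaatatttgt
PICART1: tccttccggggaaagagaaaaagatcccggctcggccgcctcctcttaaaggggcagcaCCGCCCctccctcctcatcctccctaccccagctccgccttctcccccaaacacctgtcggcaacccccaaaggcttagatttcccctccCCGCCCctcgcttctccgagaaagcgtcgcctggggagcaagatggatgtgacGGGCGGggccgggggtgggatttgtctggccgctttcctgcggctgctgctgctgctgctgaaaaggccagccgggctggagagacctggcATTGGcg
The PICART1 window also holds the start of ITGA3, which runs the other way.

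LINC00861 had 8.36 and 13.3 CPM in shControl and 3.29 and 5.47 in shGREM1 (-1.3 ± 0.29, edgeR adjusted p = 0.0173). The shControl libraries differed by more than the gap between the groups' nearest values, and the adjusted p was 0.127 without shControl-2. The remaining fallers with smaller changes were AC009041.2, SFTA1P, LINC02381, AC092171.2, LINC00973 and CYTOR, with log2 fold changes from -0.7 to -0.46. Each of these 6 lost its call in at least 1 of the fits without a library. LINC02381 lies over SMUG1 and AC092171.2 over FBXL18, both more highly counted, and reads may be shared between such partners, since the strand setting is not given in the sources used here. The log2 fold changes of these partners were -0.35 for SMUG1 and -0.38 for FBXL18, and neither passed.

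The largest rise was that of LINC01638 (ENSG00000233521, chromosome 22). It had 2.4 and 4.99 CPM in shControl, compared with 19.5 and 12.1 in shGREM1, 2.09 ± 0.36 higher on the log2 scale (edgeR adjusted p = 0.0133). All shGREM1 counts (319 and 195) were well above the shControl counts (37 and 77), though the 2 libraries within each group also differed. AJ009632.2, a transcript of up to 12 exons on chromosome 21, had 3.76 and 5.18 CPM in shControl and 18.7 and 11.1 in shGREM1 (1.74 ± 0.27, edgeR adjusted p = 0.00216). Like LINC01638, it averaged under 5 CPM in shControl and so met the level floor through shGREM1.

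OLMALINC, first described in oligodendrocyte maturation and linked in liver cells to the neighbouring desaturase gene SCD, had 33.6 and 40.5 CPM in shControl and 85.0 and 74.3 in shGREM1. Its level was 2.15-fold higher in shGREM1 (1.11 ± 0.13, edgeR adjusted p = 0.000115), and 19.1% of its 50-base windows occur in other transcripts. SCD, 8.7 kb away, had 763 and 844 CPM in shControl and 1120 and 810 in shGREM1, an overlap of the groups (0.26 ± 0.14, edgeR adjusted p = 0.299). LINC00857, studied in lung and other cancers, had 7.25 and 7.45 CPM in shControl and 13.8 and 15 in shGREM1. The libraries within each of its groups were close together (0.97 ± 0.19, edgeR adjusted p = 0.00679). AL161431.1, the third most abundant member, had 319 and 280 CPM in shControl and 506 and 462 in shGREM1. This was the largest difference in CPM among the risers, and a 1.62-fold rise (0.69 ± 0.11, edgeR adjusted p = 0.00163).

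The calls of several other risers depended on which libraries were fitted. AL590004.3, a 1-exon transcript on chromosome 6, had 65.5 and 56.6 CPM in shControl and 110.0 and 176 in shGREM1 (1.23 ± 0.24, edgeR adjusted p = 0.0421). The shGREM1 libraries were far apart, with an adjusted p of 0.285 when shControl-1 was left out and 0.289 when shControl-2 was. LINC02474 had 30.6 and 34.5 CPM in shControl and 86.9 and 57.9 in shGREM1 (1.15 ± 0.18, edgeR adjusted p = 0.0067), with an adjusted p of 0.0777 without shControl-1. AC144831.1, at the floor of the level rule, had 2.72 and 2.66 CPM in shControl and 4.76 and 10 in shGREM1. Its log2 fold change was 1.45 with all libraries and 0.82 without shGREM1-2, when its edgeR adjusted p was 0.171. The next risers by size were AC108062.1, AC138646.1, AC023824.5, ERVMER61-1, AC083843.2 and LINC01515, from 1.03 down to 0.77, and each lost its call in at least 1 fit without a library. ERVMER61-1 is named after a family of endogenous retroviruses.

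Neighbouring and overlapping lincRNAs on chromosome 19 rose in shGREM1. LINC00662 (chromosome 19, 27684580 to 27793940, minus strand, GRCh38), an RNA raised in several cancers, had 560 and 717 counts in shControl, compared with 1727 and 1748 in shGREM1. At 36.3 and 46.4 CPM against 105 and 109 CPM it rose 2.59-fold, and it had the smallest edgeR adjusted p of the members (1.37 ± 0.13, adjusted p = 1.62e-05). AC006504.1, a 1-exon transcript inside the span of LINC00662 on the same strand, had 9.46 and 8.75 CPM in shControl and 22.8 and 25.9 in shGREM1 (1.42 ± 0.17, edgeR adjusted p = 0.000143). Its reads cannot be told apart from unspliced RNA of LINC00662. AC006504.5, which starts inside LINC00662 and runs the other way, had 14.1 and 14.6 CPM in shControl and 21.0 and 22.9 in shGREM1. Both groups were tight and did not overlap (0.61 ± 0.16, edgeR adjusted p = 0.0267), but the call was lost without either shControl library. LINC00662 overlaps it and is more highly counted, so reads may be shared between them where they overlap. Of the 50-base windows of AC006504.5, 15% occur in other transcripts, with 1.4% in LINC00662.

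Below the level floor, AC020905.1 and AC005307.1, 500.2 and 624.5 kb from the start of LINC00662, also rose, and both were picked after their values were seen. AC020905.1 had 16 and 9 counts in shControl, compared with 33 and 90 in shGREM1, and AC005307.1 had 9 and 11 against 83 and 32. The nearest protein-coding gene, UQCRFS1, lies 1411.4 kb from LINC00662, had 194 and 194 CPM in shControl and 162 and 157 in shGREM1, with no call (-0.28 ± 0.1, edgeR adjusted p = 0.111). Over the whole genome, 2 of the 22 pairs of successive called members on a chromosome were less than 100 kb apart, and both were in this group.

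**Figure D3:**
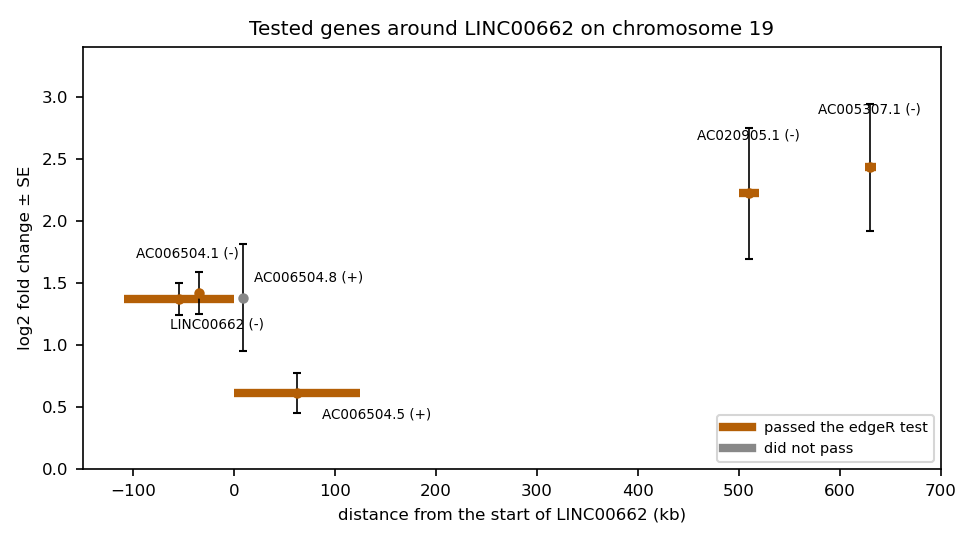
Log2 fold change of shGREM1 over shControl, with its SE, of tested genes around the start of LINC00662 on chromosome 19 (horizontal axis, distance in kb from that start, with bars for gene spans and signs for the strand). All drawn genes lie above 0; AC006504.8, a sense-intronic gene with a log2 fold change of 1.38, did not pass (edgeR adjusted p = 0.0662).

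Promoters of risers are shown for the OLMALINC and LINC00662 genes, which passed in every fit and have a RefSeq start within 200 bases of that in the table. OLMALINC is the window chr10:100373326-100373625 on the plus strand. Its capitals mark CCAAT boxes 109 and 70 bases before the start. They also mark TGAATCA 31 bases before it, a match to the pattern TGANTCA, which allows any base in its middle. LINC00662 is the window chr19:27793891-27794190 on the minus strand, in which the capitals mark a GC box after the start.
OLMALINC: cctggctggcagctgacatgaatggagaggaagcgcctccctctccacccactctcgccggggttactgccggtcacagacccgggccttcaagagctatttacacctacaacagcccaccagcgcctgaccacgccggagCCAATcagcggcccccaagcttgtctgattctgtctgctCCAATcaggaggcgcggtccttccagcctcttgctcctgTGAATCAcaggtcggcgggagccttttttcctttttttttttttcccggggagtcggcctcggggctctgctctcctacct
LINC00662: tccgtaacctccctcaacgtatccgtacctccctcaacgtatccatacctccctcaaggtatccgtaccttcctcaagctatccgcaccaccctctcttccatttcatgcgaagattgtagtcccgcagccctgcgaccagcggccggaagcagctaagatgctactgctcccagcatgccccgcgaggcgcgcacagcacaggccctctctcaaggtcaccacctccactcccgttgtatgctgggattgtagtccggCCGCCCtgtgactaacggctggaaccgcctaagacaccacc
Of the 226 members, 77 matched a RefSeq promoter by symbol, and 51 of these had a start within 200 bases. The AP-1 pattern TGANTCA, with any base in its middle, was found in 8 of the 51 (15.7%), against 7.72% of 34943 RefSeq promoters of the same length. GC boxes were found in 54.9% against 44.9%, CCAAT boxes in 33.3% against 34.6%, TATAAA in 9.8% against 11.6%, and the E-box CACGTG in 9.8% against 7.23%. The CArG box, which serum response factor binds, was in 0 of the 51 and 1.3% of all, and the NF-kB site in 3.92% and 5.9%. These matches, sought on both strands, are a description of letters and not of binding.

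Members with 1 annotated exon had a higher median than spliced members, a grouping chosen after the values were seen. Of 46 such members 10 rose (21.7%) and 0 fell, and 39 had a fold change above 0. Of 180 members with at least 2 exons 17 rose (9.44%) and 12 fell (6.67%), and 107 were above 0. Of all members 11.9% rose and 5.31% fell, and of all genes tested 3.57% and 4.12%. The medians were 0.252 and 0.141, and the median of the 1-exon members was 0.331 in shGREM1-1 and 0.311 in shGREM1-2 relative to the shControl mean. Among the 10 risers were AL590004.3, FOXD2-AS1, AL365181.2, BLACAT1, AC005332.6, AC006504.1, AC083843.2, LINC01521 and AC144831.1. Leaving out shControl-1 left 1 of them and leaving out shControl-2 left 3, and 4 members of the class rose with DESeq2 or with limma-voom. The 170 tested sense-intronic genes, which lie inside introns of other genes, had a median of 0.046. They were not held to the level floor, and their median level was 1.38 CPM beside 8.4 CPM for the 1-exon members. None of these medians was tested. AC005332.6 shares 42.4% of its 50-base windows with LRRC37A16P, so its counts are uncertain.

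**Figure D4:**
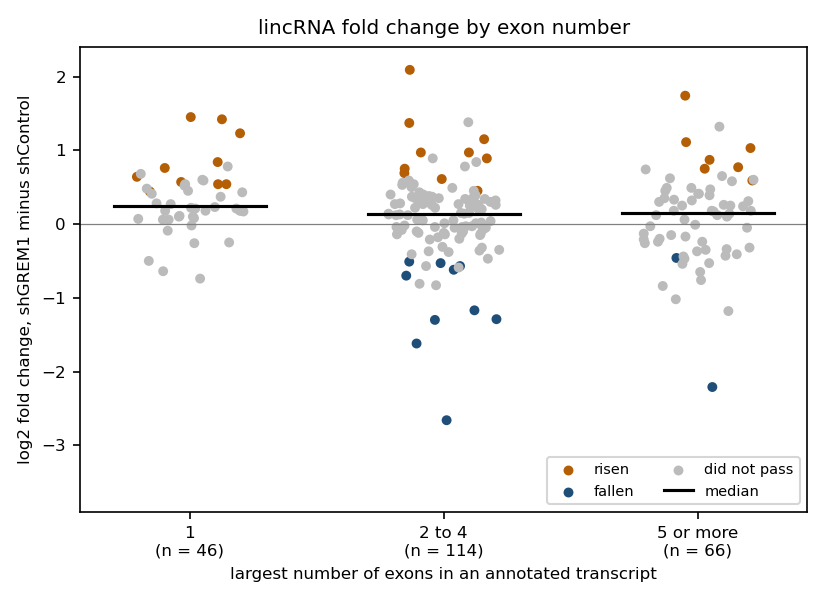
Log2 fold change of shGREM1 over shControl (vertical axis) of the 226 lincRNAs by the largest number of exons in an annotated transcript (horizontal axis; points are genes, spread sideways at random, and lines are medians). The 1-exon class has 10 risen and 0 fallen members, and the median lines stand at 0.252, 0.141 and 0.155.

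Head-to-head lincRNAs, whose start lies within 1 kb of the start of a protein-coding gene on the other strand, numbered 48. Their median log2 fold change was 0.285, and that of their coding partners was -0.07. Of the lincRNAs 4 rose and 2 fell, which is 12.5% called beside 17.3% of all members. Of the partners 0 rose and 5 fell (ITGA3, SLC12A2, CROT, PSMG3 and URB1). The fallers' share of 10.4% stands beside 5.47% of protein-coding genes with at least 5 CPM. Counted in either direction, the partners' share is the same 10.4% and is near the 9.98% of those protein-coding genes. The fold changes had the same sign in 26 pairs, and the lincRNA stood above its partner in 38. Across the 48 pairs Pearson's r was 0.6, a description in which each point shares the 4 libraries. GAS6-DT with GAS6 had the highest fold changes on both sides and PICART1 with ITGA3 the lowest, and r was not computed without them. Some of these lincRNAs, such as PSMG3-AS1 and FAM111A-DT, are overlapped by their more highly counted partner, so shared reads may enter r. Of the 5 partners that fell, ITGA3 passed in every fit and the other 4 each lost the call in at least 1.

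Both partners passed in 1 pair, PICART1 and ITGA3. ITGA3, which encodes an integrin alpha subunit that binds laminins, had 2220 and 2220 CPM in shControl and 1340 and 1440 in shGREM1 (-0.68 ± 0.11, edgeR adjusted p = 0.00178). Their starts are 229 bases apart, and the promoter printed for PICART1 spans both. The 4 lincRNAs that rose had partners that did not pass, among them BAIAP2-DT, AL365181.2 and LINC01521, with BAIAP2, BCAN and PATZ1. BAIAP2-DT had 62.7 and 61.0 CPM in shControl and 79.3 and 89.7 in shGREM1 (0.45 ± 0.11, edgeR adjusted p = 0.0243), and lost its call without shControl-1, shControl-2 or shGREM1-2. BAIAP2, the gene of a regulator of the actin cytoskeleton whose start is 241 bases away, had 57.8 and 52.9 CPM against 56.2 and 48.9, and its groups overlapped.

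The pair with the highest fold changes, GAS6-DT and GAS6, was singled out after the values were seen. GAS6 encodes a secreted ligand of the receptors AXL, MERTK and TYRO3. GAS6-DT had 14.8 and 17.6 CPM in shControl and 29.5 and 55.3 in shGREM1, and GAS6 had 275 and 229 against 451 and 832. In both genes shGREM1-2 was far above shGREM1-1, and neither passed: the log2 fold changes were 1.38 ± 0.34 and 1.35 ± 0.38, with edgeR adjusted p of 0.0934 and 0.178. The call depended on the method. With DESeq2 the adjusted p was 0.0415 for GAS6-DT and 0.0397 for GAS6, and with limma-voom 0.0121 and 0.00429. Both also passed without robust estimation and with the replicate block. Neither passed with any other scaling, with the filter at a mean of 5 CPM or with protein-coding genes and lincRNAs only. Without the count filter GAS6-DT passed and GAS6 did not. Their log2 fold changes were 0.864 and 0.839 without shGREM1-2, and 1.768 and 1.722 without shGREM1-1.

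**Figure D5:**
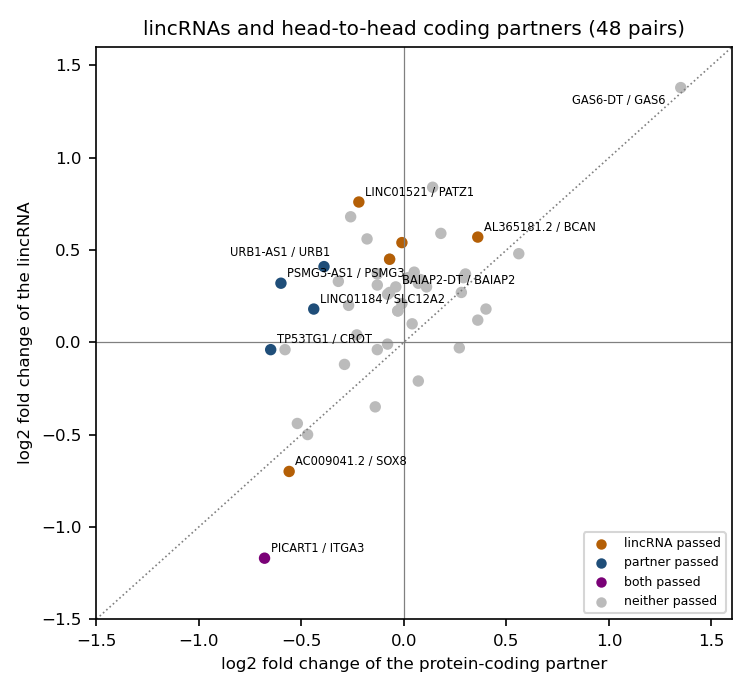
Log2 fold change of 48 lincRNAs (vertical axis) against that of the protein-coding gene whose start lies within 1 kb on the other strand (horizontal axis), with colours for which of the pair passed the edgeR test, names for most of these pairs and a dotted line where the values are equal. Points lie above that line in 38 pairs, and PICART1 with ITGA3 is the pair in which both passed.

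Among the protein-coding genes nearest to the 39 called members, 32 members had a neighbour that could be tested, 30 distinct genes in all, and 3 passed. That share of 10% is near the 9.98% of all protein-coding genes with at least 5 CPM. The median distance was 40.3 kb. The fold changes of member and neighbour had the same sign in 19 of 32. ITGA3 is described above. TRIB1, a pseudokinase gene 483.9 kb from LINC00861, had 88.3 and 115 CPM in shControl and 50.3 and 57.3 in shGREM1 (-0.92 ± 0.13, edgeR adjusted p = 0.000927). MN1, a transcriptional coregulator gene 523.5 kb from LINC01638, had 82.6 and 82.7 CPM in shControl and 109 and 147 in shGREM1 (0.63 ± 0.13, edgeR adjusted p = 0.0108), and its adjusted p was 0.0577 without shControl-1. The neighbours of AC108062.1, LINC00857 and MYOSLID (PGRMC2, ANXA11 and KLF7) had log2 fold changes of -0.01, 0.05 and 0.06.

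MicroRNA genes lay within 10 members on the same strand, and 2 of these hosts passed, a share of 20% beside 17.3% of all members. MicroRNAs are cut from such longer transcripts and pair with messenger RNAs through their seed, bases 2 to 8. MIR3142HG, whose transcript is induced by NF-kB and carries miR-146a, had 7.0 and 11.7 CPM in shControl and 5.0 and 2.61 in shGREM1 (-1.29 ± 0.34, edgeR adjusted p = 0.0406). Its groups did not overlap, but the adjusted p was 0.207 without shControl-2. CYTOR, named for a role in the cytoskeleton, and MIR4435-2HG, a near copy elsewhere on chromosome 2, carry the same mature miR-4435. The sequences are shown for the hosts that passed and for the best known of the others, with the seed in capitals, from RefSeq.
hsa-miR-146a-5p (MIR3142HG): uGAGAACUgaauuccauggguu
hsa-miR-3142 (MIR3142HG): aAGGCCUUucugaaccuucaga
hsa-miR-4435 (CYTOR and MIR4435-2HG): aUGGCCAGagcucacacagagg
hsa-miR-34a-5p (MIR34AHG): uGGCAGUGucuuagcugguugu
hsa-miR-22-3p (MIR22HG): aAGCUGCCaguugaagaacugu
hsa-miR-4458 (MIR4458HG): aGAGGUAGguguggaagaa
Of 15 microRNA genes in these hosts, 10 had a mature sequence in the RefSeq table, with 15 mature sequences and 14 distinct seeds. The seed of miR-4458, GAGGUAG, is also that of the let-7 family. The counts are of host transcripts and do not measure mature microRNAs.

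CYTOR had 74.5 and 74.2 CPM in shControl and 58.2 and 49.9 in shGREM1 (-0.46 ± 0.12, edgeR adjusted p = 0.0262), and MIR4435-2HG had 98.0 and 89.5 against 90.4 and 122 (0.18 ± 0.14, edgeR adjusted p = 0.475). The pair shares 16% of the 50-base windows of CYTOR and 21.6% of those of MIR4435-2HG, so reads could be assigned to either. Their summed level was 172 and 164 CPM in shControl and 149 and 172 in shGREM1, and these groups overlapped. The call of CYTOR was also lost without shControl-1, shControl-2 or shGREM1-2. The other hosts that were tested, NEAT1, MIR34AHG, MUC20-OT1, PVT1, MIR22HG, MIR4458HG, AC016205.1 and MIR4435-2HG, had log2 fold changes from -0.34 to 0.35 and did not pass.

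Of 5 members listed as linked to p53 (NEAT1, PURPL, MIR34AHG, PVT1 and TP53TG1) 0 passed. Of 5 listed as linked to growth (MIR4435-2HG, CYTOR, PVT1, MIAT and LINC01116) 1 passed, CYTOR. These shares of 0% and 20% stand beside 17.3% of all members and 7.69% of all genes, and lists of 5 are too short to compare. PICART1, described above as p53-inducible, was not on the list and fell. PURPL, a p53-induced RNA that restrains p53, had 131 and 171 CPM in shControl and 179 and 165 in shGREM1, and MIR34AHG, the host of the p53-induced miR-34a, had 50.1 and 53.8 against 56.3 and 44.3. The groups overlapped in both. TP53TG1 had a log2 fold change of -0.04 and PVT1, beside MYC, one of -0.34 (edgeR adjusted p = 0.153). Of 24 tested p53 target genes 10 fell (41.7%, beside 4.12% of all genes) and 0 rose, with a list median of -0.428 beside 0.005 over all genes, among them GADD45A (-0.95 ± 0.11), CDKN1A (-0.7 ± 0.11) and PLK3 (-0.69 ± 0.11), with edgeR adjusted p of 9.88e-05, 0.00127 and 0.00188. GADD45A and CDKN1A act in DNA damage response and cell cycle arrest. The number that fell was 6 without either shControl library, 14 without shGREM1-1 and 7 without shGREM1-2. MIAT had 21.8 and 14.1 CPM in shControl and 12.7 and 29.8 in shGREM1, and LINC01116 had a log2 fold change of -0.18, neither of which passed.

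Of 55 tested genes for proteins of paraspeckles, the nuclear exosome and microRNA biogenesis 3 passed, a share of 5.45%. It stands beside 7.69% of all genes tested and 9.98% of protein-coding genes with at least 5 CPM. Of 17 paraspeckle protein genes 0 rose and 1 fell, RBM14, with 134 and 116 CPM in shControl and 71.9 and 77.3 in shGREM1 (-0.74 ± 0.11, edgeR adjusted p = 0.00111), and the list median was -0.067. SFPQ and NONO, which bind NEAT1, had log2 fold changes of -0.16 and 0.16 and did not pass. Of 22 genes of the nuclear exosome and its adaptors, which degrade many unstable nuclear RNAs, 0 rose and 1 fell, EXOSC5 (-0.55 ± 0.15, edgeR adjusted p = 0.0375), with a list median of -0.111. EXOSC5 lost its call without either shControl library. Of 16 microRNA biogenesis genes 0 rose and 1 fell, and the list median was -0.003. That gene was TARBP2, a partner of DICER1 (-0.53 ± 0.14, edgeR adjusted p = 0.0366), whose adjusted p was 0.371 without shControl-1.

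The median absolute log2 difference between the libraries of a group was 0.206 in shControl and 0.228 in shGREM1 for the members, beside 0.152 and 0.165 for protein-coding genes of 5 to 50 CPM. These sets differ in level, with a median of 10.4 CPM for the members and 21.4 CPM for the coding genes. UCA1, an RNA first found in bladder cancer and picked here for its spread, had 84.0 and 75.3 CPM in shControl and 76.1 and 25.2 in shGREM1. Its shGREM1-2 library alone was low, and it did not pass (-0.65 ± 0.71, edgeR adjusted p = 0.691). Reads of overlapping genes are a further limit: 36 members are overlapped by a more highly counted gene, and without them 25 members rose and 10 fell of 190.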

How the data were processed

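RNA-seq was analysed in 2 shControl and 2 shGREM1 libraries of U2OS cells. The table the authors deposited holds raw read counts. StringTie 1.3.3b, HISAT2 2.0.5 and DESeq2 are named in the submitters' processing notes, with no role; the sources used here give neither the counting program nor its strand setting. The notes name the mouse build mm10, but all 58735 genes matched GENCODE 29 (GRCh38) in identifier, position, strand and biotype. The columns NC1 and NC2 were taken to be the shControl libraries, and SHG11 and SHG12 the shGREM1 libraries, on the abbreviations alone.

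The test was edgeR 4.0.16 in R 4.3.3: filterByExpr (minimum count 10, total 15; 18442 genes kept), TMM scaling (factors 0.987 to 1.01), robust quasi-likelihood fit, Benjamini-Hochberg adjustment over all kept genes, adjusted p under 0.05. Printed CPM are TMM-scaled, except the mean levels used by the level rule and the per-kb values, which use column totals. Log2 fold changes are shGREM1 minus shControl, with SE from the fit. The biological coefficient of variation was 11.4%. The script was tested on simulated data.

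The members and gene lists were chosen with earlier results of these data known. Named genes were all fallers, the 15 largest risers, the 8 highest members per kb, role groups, members at the floor, coding neighbours and head-to-head partners of called members, up to 3 called genes per list and GREM1. Other names (DKK1, AC020905.1, AC005307.1, AC006504.5, AC006504.8, GAS6-DT, GAS6, UCA1, SFPQ, NONO, the other coding partners that fell and risers beyond the 15 largest) were chosen after the values were seen. The alternatives were scaling by total count, upper quartile or relative log expression, a filter at a mean of 5 CPM or none, no robust estimation, a replicate block, protein-coding genes and lincRNAs only, DESeq2 1.42.0, limma-voom (limma 3.58.1), other level floors, and each library left out. Sequences are from RefSeq (GRCh38.p14); shared windows are 50-base runs in GENCODE transcripts. Figures were drawn with matplotlib 3.10.9. The values of a few genes are not reported here because they are withheld for evaluation.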

Additional observations from a re-analysis of the deposited data

How the results depend on the processing

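With 2 libraries per group and a median member level of 10.4 CPM, small changes were not detectable at this depth, and a call rests on the spread within 1 pair of libraries in each group. The members' median log2 fold change stayed between 0.151 and 0.212 in every fit, within the spread between replicates (SD 0.0509). None of the 39 called members changed direction in any fit. Medians near 0 did change sign: that of the protein-coding genes was -0.016, and 0.017 with upper-quartile and 0.005 with total count scaling, and that of the microRNA biogenesis genes was -0.003, and ran from -0.071 to 0.055 over the fits. Of the 39 called members, 11 passed in every fit: LINC01638, AJ009632.2, AC006504.1, LINC00662, OLMALINC, LINC00857 and AL161431.1 rose, and AL713998.1, LNCAROD, MYOSLID and PICART1 fell.

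Leaving out each library in turn gave 7 to 33 risen members and 5 to 20 fallen members, beside 27 and 12 with all libraries. The same fits gave 266 to 998 risen and 382 to 1112 fallen genes among all tested, beside 659 and 759. They gave 2 to 6 called neighbouring coding genes, beside 3, and 7 to 18 called genes over the lists, beside 13. There, the group with 1 library is given the spread of the other, so calls gained there are not evidence of change. Without the count filter, 19 members and 1142 genes fell, and 5 neighbours passed. A floor of 10 CPM left 20 risen and 7 fallen members of 119, and a floor of 2 CPM gave 41 risen and 18 fallen of 499. The causes of these shifts were not tested.

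Replicate numbers are shared by the groups, but with 2 pairs the labels give no shared source. With the replicate number as a block, 37 members rose and 22 fell, 1101 and 1273 of all tested genes rose and fell, and 6 neighbours passed.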
